A study of Mus musculus with 24 samples.

Results

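Cystatins and cathepsins are the protease inhibitors and proteases of the endolysosome, and 10 of their genes were followed here across 4 genotypes of 5xFAD mouse cortex: the inhibitors Cst7 and Cst3 and the proteases Ctsa, Ctsb, Ctsc, Ctsd, Ctsh, Ctsl, Ctss and Ctsz. The members were taken by gene symbol from the deposited count table. They are 10 of 24421 genes in the table. All 10 passed the filter on low counts, which left 16316 genes for testing, and the smallest count of a member in a library was 46.

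The study crossed 5xFAD mice, which carry mutant human amyloid precursor protein and presenilin transgenes driven by a neuronal promoter and develop amyloid plaques, with mice deficient in Trem2 or Plcg2. RNA from the cortex of 24 mice aged 7.5 months was sequenced, 1 library per mouse. All mice carried 5xFAD, and the labels name 4 genotypes of 6 mice: WT, which is wild type for Trem2 and Plcg2, Trem2KO, which lacks Trem2, Plcg2KO, which lacks Plcg2, and Plcg2HET, labelled as a heterozygous knockout of Plcg2. There were 2 females among the Plcg2KO mice and 3 in every other group, with males making up the rest. No cortex without 5xFAD was analysed here, so no level below could be set against tissue free of amyloid, and how the Trem2 and Plcg2 alleles were made was not given in the sources used here.

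Cathepsins are made as inactive precursors, sorted to lysosomes and activated at acidic pH, where they degrade proteins and cut the invariant chain of class II molecules. Cystatins bind and block cysteine cathepsins, either inside the endolysosome (cystatin F, from Cst7) or largely as secreted proteins (cystatin C, from Cst3). In brain, microglia are rich in several cathepsins, Cst7 is a marker of microglia around plaques, and Cst3 and Ctsb are also expressed by other brain cells. TREM2 is a lipid-sensing receptor of microglia, and PLCG2 is a phospholipase that acts downstream of it and of other immune receptors.

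In mm10, 4 members lie on chromosome 2: Cst3 (chr2:148871732-148875468, minus strand), Cst7 (chr2:150570415-150578944, plus), Ctsa (chr2:164832872-164841032, plus) and Ctsz (chr2:174427494-174438992, minus). Ctsd (chr7:142375916-142387870, minus) and Ctsc (chr7:88278093-88310875, plus) are on chromosome 7. Ctss is at chr3:95526786-95556405 (plus), Ctsh at chr9:90054267-90076095 (plus), Ctsl at chr13:64363214-64370306 (minus) and Ctsb at chr14:63122462-63145923 (plus).

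Promoters are shown for the inhibitor with the widest range of levels, the inhibitor with the narrowest shift, and the most abundant protease. Each run holds 250 bases upstream of a RefSeq start site of build GRCm38.p6, 5′ to 3′ on the gene's strand, with matches to GGAAGT (a core of ETS factor sites) or CACGTG (an E-box bound by MiT/TFE factors, which drive lysosomal genes) in capitals. The windows are chr2:150570165-150570414 on the plus strand for Cst7, chr2:148875513-148875762 on the minus strand for Cst3 and chr7:142387828-142388077 on the minus strand for Ctsd.
Cst7: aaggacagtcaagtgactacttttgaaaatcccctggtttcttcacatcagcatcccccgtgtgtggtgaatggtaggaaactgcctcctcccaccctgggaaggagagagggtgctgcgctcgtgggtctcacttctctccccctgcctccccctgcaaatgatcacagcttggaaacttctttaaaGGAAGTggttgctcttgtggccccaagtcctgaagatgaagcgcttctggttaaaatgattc
Cst3: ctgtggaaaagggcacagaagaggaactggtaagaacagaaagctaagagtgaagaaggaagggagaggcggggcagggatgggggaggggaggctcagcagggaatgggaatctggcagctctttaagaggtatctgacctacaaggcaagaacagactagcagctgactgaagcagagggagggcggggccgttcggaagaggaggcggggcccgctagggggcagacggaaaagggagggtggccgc
Ctsd: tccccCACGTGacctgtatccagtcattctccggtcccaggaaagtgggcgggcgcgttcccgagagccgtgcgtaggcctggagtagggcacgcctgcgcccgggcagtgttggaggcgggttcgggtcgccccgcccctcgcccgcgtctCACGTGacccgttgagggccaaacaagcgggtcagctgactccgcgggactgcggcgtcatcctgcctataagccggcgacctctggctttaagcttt

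RefSeq promoters were matched for 8 of 10 members, giving 9 windows, with Ctsb and Ctsh unmatched. Both strands were searched, and matches to different motifs can share bases at their ends. CACGTG was present in 3 of 9 member windows and in 6.02% of 32851 promoter windows of the same length. The Ctsd window held 2 copies, with first bases 245 and 98 bases upstream of the start, and the second Ctsa window and the Ctsl window held 1 each. GGAAGT was present in 3 of 9 member windows (Cst7, Ctsa and Ctsc) and in 19.7% of all windows, with the Cst7 copy 62 bases upstream of the start. The AP-1 motif TGANTCA was found in 0 of 9 member windows and in 6.75% of all windows. These are matches of letters, and nothing was measured on the binding of a factor.

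Library totals were between 36272966 and 82990818 counts. Plcg2 fell from 11.8 ± 3.14 CPM (counts scaled to a common library size, here by TMM) in WT to 0.984 ± 0.159 in Plcg2KO (SD, n = 6), and Trem2 was 82.5 ± 34.9 CPM in WT and 6.01 ± 1.21 in Trem2KO. Trem2 was also low in Plcg2KO, at 19.1 ± 5.39 CPM, with a range of 14.1 to 28.6 against 46.5 to 119 in WT. In mice labelled Plcg2HET, Plcg2 was 12.0 ± 4.98 CPM, with a range of 5.89 to 19.8 against 7.73 to 15.2 in WT. Its mean was thus not below that of WT. Whether the label holds was not tested, and results for this group are those of the libraries so labelled. In 3 libraries, all from females (1 WT and 2 labelled Plcg2HET), the ribosomal RNA precursor Rn45s took over 5% of counts. Its share was 9.59% in WT F1, 5.29% in Plcg2HET F1 and 29.0% in Plcg2HET F3, the library with the smallest total. Neuron, astrocyte and oligodendrocyte markers were detected in every genotype and the summed level of 15 pan-microglial markers was 996 to 1714 CPM in WT, 669 to 953 in Trem2KO, 523 to 864 in Plcg2KO and 1038 to 2017 in the group labelled Plcg2HET. In bulk RNA, fewer cells of a type and less RNA per cell cannot be told apart.

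The deposited TPM, which are scaled for transcript length, give the order of levels in WT cortex. Cst3 stood highest at 5995 ± 895 TPM (SD, n = 6), followed by Ctsd, the main aspartic protease of lysosomes, at 1522 ± 379 TPM. Ctss (433 ± 81.9 TPM) and Ctsb (417 ± 44.4 TPM) did not differ beyond their spread, since their ranges overlapped and Ctss was the higher in 4 of 6 libraries. Next came Ctsz (269 ± 86.1 TPM), Ctsl (217 ± 30.7), Cst7 (154 ± 72.9) and Ctsa (100 ± 11.5), in which each range overlapped that of its neighbour. Ctsh (45.3 ± 16.6 TPM) and Ctsc (13.3 ± 2.21 TPM) were lowest, and their ranges were apart. In Plcg2KO Ctsb (330 TPM) stood above Ctss (209 TPM), and Ctsl (135 TPM) above Ctsz (101 TPM), in 6 of 6 libraries each, the reverse of the order of the WT means. Trem2KO showed the same order in 6 of 6 libraries each, with Ctsb at 377 and Ctss at 248 TPM, and Ctsl at 151 and Ctsz at 131 TPM. At the lower end in Plcg2KO was Cst7 at 8.34 ± 5.04 TPM beside Ctsc at 6.97 ± 1.70 TPM and higher than Ctsc in 3 of 6 libraries.

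**Figure D1:**
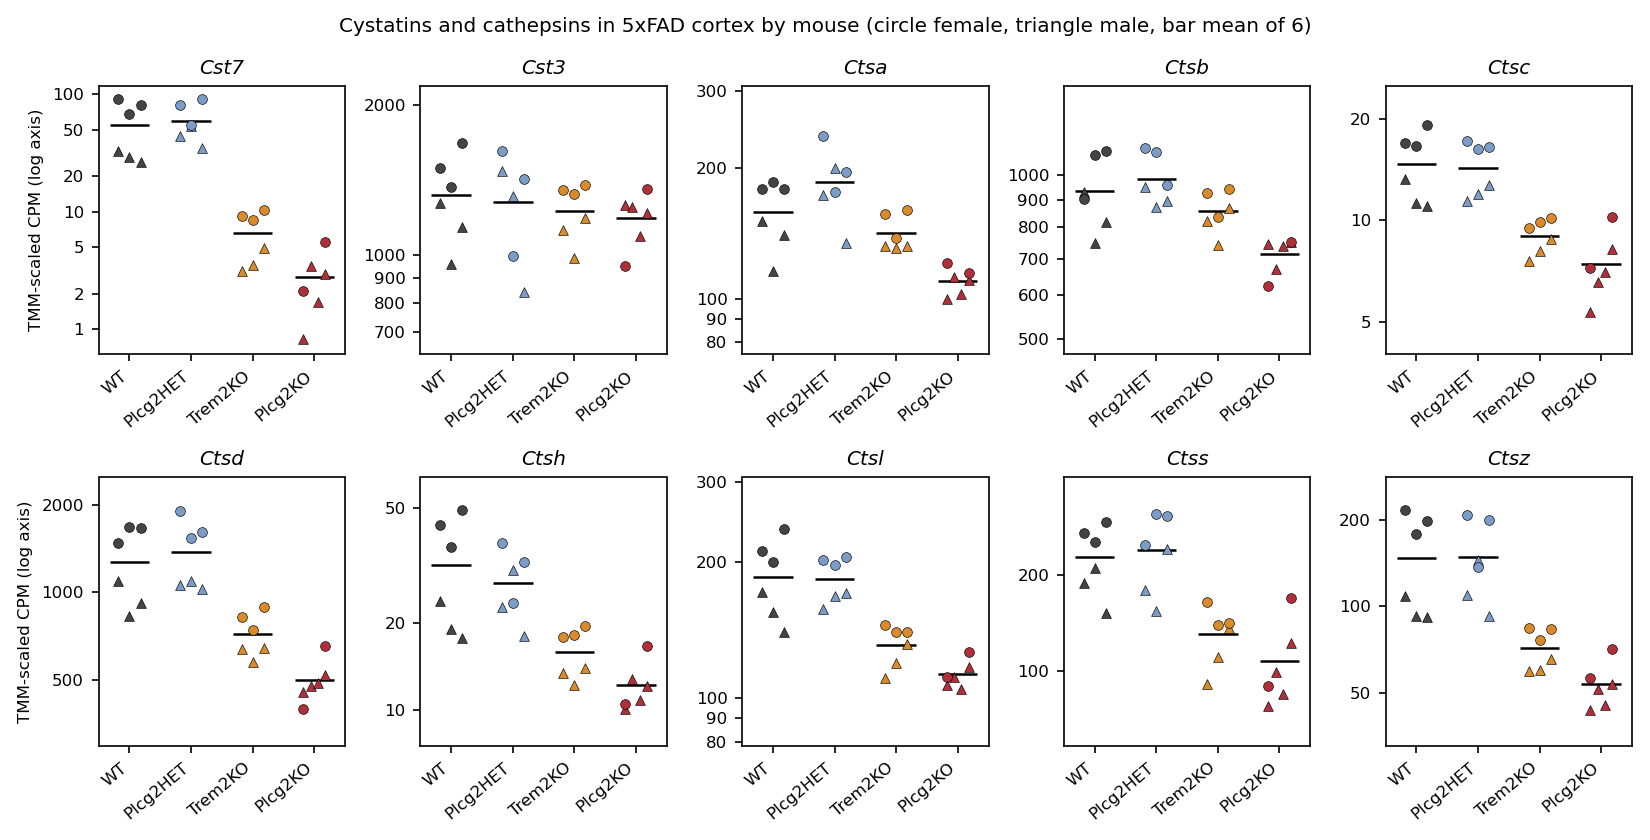
Levels of the 10 members in each mouse as TMM-scaled CPM on a log axis, by genotype, with females as circles, males as triangles and the mean of 6 mice as a bar. Cst7 in Plcg2KO lies between 0.820 and 5.59 CPM against 26.4 to 90.7 in WT, while the Cst3 ranges of the 4 genotypes overlap.

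In Plcg2KO cortex 9 of 10 members were lower than in WT and none was higher, while 13.1% of all genes were called (7.63% lower, 5.44% higher) at an adjusted p under 0.05. The 9 were Cst7 and all 8 cathepsins, and Cst3 was not called. The median log2 fold change of the members was -0.94 against -0.0035 over all genes tested. For 6 of the 10 (Cst7, Ctsc, Ctsd, Ctsh, Ctsl and Ctsz) every Plcg2KO mouse lay below every WT mouse, as was so for 4.75% of all genes.

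Cst7, which encodes the inhibitor cystatin F, was 26.4, 50.5 and 90.7 CPM at the lowest, median and highest WT mouse. In Plcg2KO the same values were 0.820, 2.52 and 5.59 CPM, and in Trem2KO they were 3.12, 6.75 and 10.4 CPM. Both knockouts were thus entirely below WT, with Plcg2KO reaching lower than Trem2KO but overlapping it. The log2 fold change against WT was -4.01 in Plcg2KO (SE 0.26, adjusted p = 6.57e-11), or 6.22% of the WT level, and -3.02 in Trem2KO (SE 0.25, adjusted p = 7.4e-09), or 12.4% of WT. No other member fell by more than 1.29 in either knockout.

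Cst3, which encodes cystatin C, ran from 960 to 1679 CPM in WT (median 1318), from 985 to 1379 in Trem2KO (median 1255) and from 950 to 1356 in Plcg2KO (median 1232). The ranges overlapped throughout, and the knockout mice sat within the WT range or just under its lower end. The log2 fold change was -0.10 in Plcg2KO (95% interval -0.37 to 0.17, adjusted p = 0.681) and -0.10 in Trem2KO (-0.37 to 0.17, adjusted p = 0.65). Falls as large as those of Ctsc, Ctsd, Ctsh, Ctss or Ctsz lie outside these intervals.

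Ctsd, the aspartic protease that is the most abundant cathepsin here, had a lowest, median and highest level of 831, 1281 and 1680 CPM in WT, 396, 481 and 654 in Plcg2KO and 575, 692 and 893 in Trem2KO. All Plcg2KO mice were below all WT mice, whereas 1 Trem2KO mouse, F3, lay above the lowest WT mouse. Its log2 fold change was -1.22 in Plcg2KO (SE 0.12, adjusted p = 8.58e-08) and -0.80 in Trem2KO (SE 0.12, adjusted p = 5.2e-05).

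Ctsz, or cathepsin X, is a carboxypeptidase of myeloid cells, and had the largest fall among the 8 cathepsins that are members. Its lowest, median and highest levels were 92.2, 143 and 215 CPM in WT, 43.8, 52.9 and 70.8 in Plcg2KO and 59.6, 71.0 and 84.3 in Trem2KO. Both knockout groups were entirely below WT. Its log2 fold change was -1.29 in Plcg2KO (SE 0.13, adjusted p = 1.23e-07) and -0.98 in Trem2KO (SE 0.13, adjusted p = 9.34e-06).

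Ctss, a cysteine protease that stays active at neutral pH and trims the invariant chain, ran from 152 to 293 CPM in WT (median 231), 77.6 to 169 in Plcg2KO (median 94.1) and 90.8 to 164 in Trem2KO (median 137). A Plcg2KO female, F2, was the only mouse of that group above the lowest WT mouse. The log2 fold change of Ctss was -0.99 in Plcg2KO (SE 0.14, adjusted p = 2.34e-05) and -0.79 in Trem2KO (SE 0.14, adjusted p = 0.000423).

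Ctsh, an aminopeptidase, changed by -1.21 in Plcg2KO, from 31.6 ± 13.3 to 12.2 ± 2.43 CPM, and by -0.94 in Trem2KO, to 15.9 ± 3.00 CPM. Ctsc, a dipeptidyl peptidase that activates granule serine proteases and is a target of cystatin F, changed by -0.89 and -0.69, from 14.7 ± 3.36 to 7.45 ± 1.66 and 9.01 ± 1.03 CPM. Ctsl, an endopeptidase also blocked by cystatin F, changed by -0.65 and -0.49, from 185 ± 36.3 to 113 ± 7.84 and 131 ± 13.5 CPM. In Plcg2KO these 3 genes were below WT in every mouse, and in Trem2KO only Ctsc was.

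Ctsb, a cysteine protease with both endopeptidase and carboxypeptidase activity, had the smallest called change. It ran from 748 to 1105 CPM in WT (median 916), from 624 to 752 in Plcg2KO (median 744) and from 743 to 941 in Trem2KO (median 852), so that 2 Plcg2KO mice lay just above the lowest WT mouse and the other 4 below every WT mouse. The log2 fold change was -0.35 in Plcg2KO (SE 0.09, adjusted p = 0.00925) and -0.12 in Trem2KO (95% interval -0.30 to 0.06, adjusted p = 0.395). The Plcg2KO call was not made in males alone (-0.20, adjusted p = 0.489) or in females alone (-0.56, adjusted p = 0.0502).

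Ctsa, a serine carboxypeptidase that also stabilises lysosomal beta-galactosidase and neuraminidase, ran from 116 to 186 CPM in WT (median 165), 99.9 to 121 in Plcg2KO (median 111) and 131 to 160.5 in Trem2KO (median 135). The Plcg2KO mice overlapped only the lowest WT mouse, and all lay below all Trem2KO mice. Its log2 fold change was -0.47 in Plcg2KO (SE 0.09, adjusted p = 0.00124) and -0.15 in Trem2KO (95% interval -0.34 to 0.04, adjusted p = 0.302). In males alone the Plcg2KO change was -0.36 (adjusted p = 0.234). Exons of Ctsa overlap those of Neurl2 and Pltp over 820 bases, those of Ctsb overlap Fdft1 over 773 bases and those of Ctsz overlap Nelfcd over 9 bases, and the strand setting of the counting was not given in the sources used here.

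In Trem2KO cortex 7 of 10 members were lower than in WT and none was higher, against 15.7% of all genes called (8.16% lower, 7.56% higher). Cst3, Ctsa and Ctsb were not called. The median of the members was -0.74 against -0.024 over all genes. Every Trem2KO mouse lay below every WT mouse for 3 members, Cst7, Ctsc and Ctsz, as was so for 5.23% of all genes. The 2 knockouts were set against the same 6 WT mice, so their likeness is not independent evidence. With offsets for GC content and gene length, Ctsa was also called in Trem2KO (-0.27, adjusted p = 0.0049), and in males alone 2 members were called. In females alone the 7 members kept their calls. For these alternative fits the share of all genes called was not taken.

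In the libraries labelled Plcg2HET 0 of 10 members were called against WT by edgeR, while 18% of all genes were (7.13% lower, 10.9% higher). The member median was 0.059 against -0.0064 over all genes, and the groups overlapped for all 10, where 1.64% of all genes were apart and lower and 1.92% apart and higher. Cst7 ran from 34.7 to 90.5 CPM (median 54.3), all within the WT range, and stood at 0.25 (95% interval -0.22 to 0.71, adjusted p = 0.488). Ctsa had an unadjusted p under 0.05 (0.24, 95% interval 0.04 to 0.43, adjusted p = 0.0791), and DESeq2 called it (0.25, adjusted p = 0.0465). The remaining 8 estimates lay between -0.14 and 0.12.

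Against the libraries labelled Plcg2HET, 9 members were lower in Plcg2KO, where 35.2% of all genes were called (20.2% lower), and 8 were lower in Trem2KO, where 15.5% were (9.28% lower). Cst3 was called in neither, and Ctsb was not called in Trem2KO. All Plcg2KO mice lay below all Plcg2HET mice for 8 members (4.44% of all genes), and all Trem2KO mice did for 5 (3.17%). Cst7 had log2 fold changes of -4.25 in Plcg2KO and -3.26 in Trem2KO, and Ctsd of -1.33 and -0.91.

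**Figure D2:**
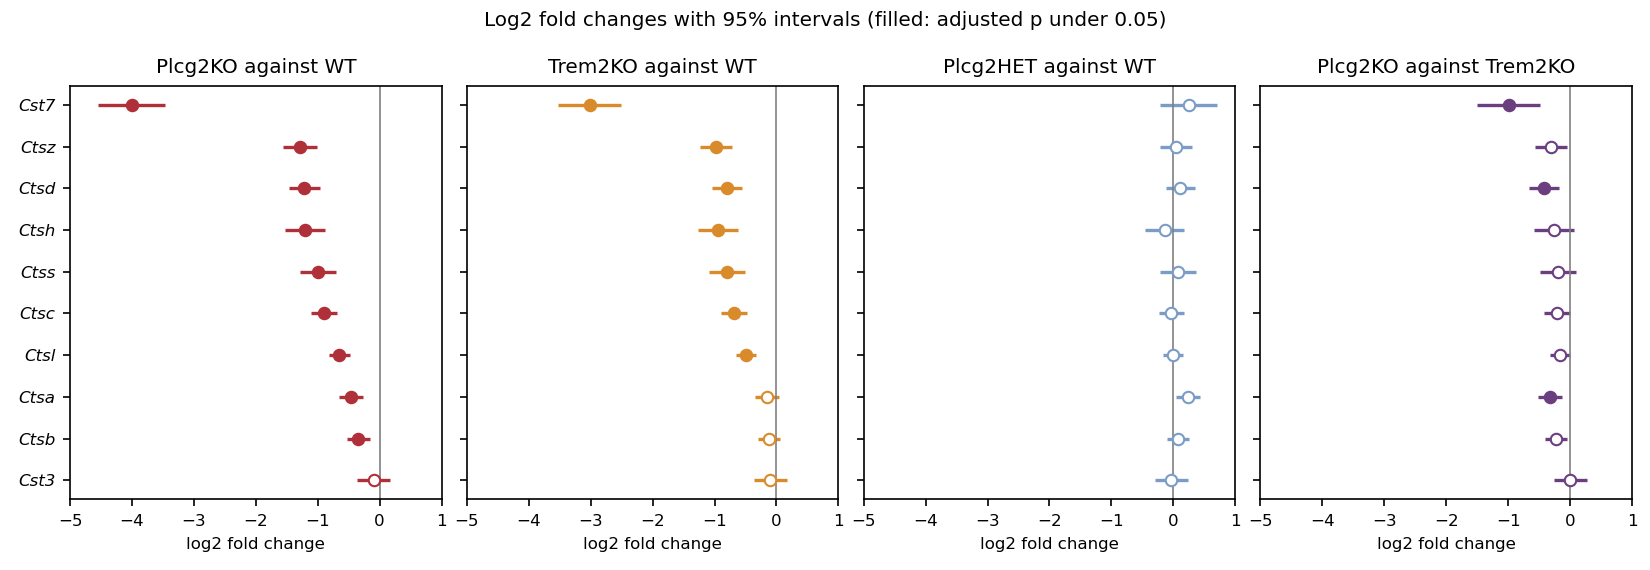
Log2 fold changes of the 10 members (points, filled where the adjusted p was under 0.05) with 95% intervals (lines) in 4 comparisons. In Plcg2KO against WT 9 points are filled, in Trem2KO against WT 7, in the libraries labelled Plcg2HET 0, and in Plcg2KO against Trem2KO 3.

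Set against each other, Plcg2KO was lower than Trem2KO for 3 of 10 members, with 16.5% of all genes called (8.82% lower). Cst7 differed by -0.99 (SE 0.25, adjusted p = 0.0136), Ctsd by -0.42 (SE 0.12, adjusted p = 0.0215) and Ctsa by -0.32 (SE 0.09, adjusted p = 0.0256). Groups were apart for Ctsa alone, as for 9.25% of all genes in this direction. The other 7 were not called, and 6 of them had estimates between -0.31 and -0.16, with intervals such as -0.57 to -0.05 for Ctsz and -0.49 to 0.09 for Ctss. For Cst3 the difference was 0.004 (95% interval -0.27 to 0.28). The count of 3 was 1 without Trem2KO M1, without Trem2KO F3 or without Plcg2KO F1, 0 in either sex alone and 7 in a fit of these 2 genotypes only. Shares of all genes called in these fits were not taken, so these counts have no background. With GC content and length offsets Ctsa (-0.075, adjusted p = 0.499) and Ctsd (-0.25, adjusted p = 0.107) were no longer called, and Ctsc, Ctsl and Ctss were.

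The markers of microglia fell with the members. All 15 pan-microglial markers were lower in Plcg2KO and 13 of 15 in Trem2KO, with a mean log2 difference of -1.14 and -0.84, and homeostatic microglial markers were lower for 10 and 9 of 12, with means of -0.70 and -0.57. In Plcg2KO 7 of 10 endothelial markers were also lower (summed level 100 to 128 CPM against 136 to 225 in WT), as 0 of 10 were in Trem2KO (129 to 185 CPM), and their part in the results was not tested. Markers of border-associated macrophages were higher for 4 and 5 of 9 (31 to 36 CPM in Plcg2KO, 33 to 46 in Trem2KO, 19 to 27 in WT), and their part was not tested either. Libraries labelled Plcg2HET also had 5 of these 9 higher than WT (25.0 to 38.8 CPM). Against those libraries 1 of the 9 was higher in each knockout. Of the markers in these lists, none was at 0 in any genotype. Among 10 markers each in Plcg2KO, 1 astrocyte marker was lower and 1 higher, 1 neuron marker was higher and 1 oligodendrocyte marker was lower, and in Trem2KO 1 oligodendrocyte marker was lower. Of 5 neutrophil and T cell markers tested 1 was higher in Plcg2KO and 0 were called in Trem2KO, and Elane was at 0 in WT.

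Members were then tested relative to the pan-microglial markers, by a fit in which each library was offset by the mean log level of the 15 markers. This scaling moved the median of all genes to 1.06 in Plcg2KO and 0.81 in Trem2KO, with 90.9% and 86.6% of genes called higher and 0.601% and 0.57% called lower. Cst7 was the only member lower than the markers, by -3.02 (SE 0.20, adjusted p = 3.07e-12) in Plcg2KO and -2.17 (SE 0.19, adjusted p = 3e-09) in Trem2KO. Ctsc, Ctsd, Ctsh, Ctss and Ctsz were not told apart from the markers, at -0.23 to 0.15 in Plcg2KO and -0.13 to 0.15 in Trem2KO, and none of these 5 was called.

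Cst3, Ctsa, Ctsb and Ctsl were higher relative to the markers in both knockouts, by 0.95, 0.60, 0.71 and 0.41 in Plcg2KO and by 0.74, 0.69, 0.72 and 0.35 in Trem2KO, each less than the shift of the median gene in that comparison. In the libraries labelled Plcg2HET 0 of 10 were called, with 3.57% of genes. Between Plcg2KO and Trem2KO only Cst7 was called, at -0.85 (SE 0.19, adjusted p = 0.00898), with 18.3% of genes (0.858% lower).

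The 5 intermediate cathepsins depended on which markers were used. The homeostatic markers fell less, with a mean log2 difference of -0.70 in Plcg2KO against -1.14 for the pan-microglial markers. The share of all genes called relative to homeostatic markers was not taken. Relative to the 12 homeostatic markers in Plcg2KO, Ctsd stood at -0.59, Ctsh at -0.57 and Ctsz at -0.65, all called lower, and Ctsc (-0.27, adjusted p = 0.019) and Ctss (-0.37, adjusted p = 0.0176) changed sign and were called lower. Ctsl (-0.014, adjusted p = 0.897) also changed sign and lost its call, and Ctsa (0.17, adjusted p = 0.133) lost its call. In Trem2KO, Ctsh (-0.36, adjusted p = 0.018) and Ctsz (-0.41, adjusted p = 0.00172) were called lower than these markers, and Ctsl was not called.

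**Figure D3:**
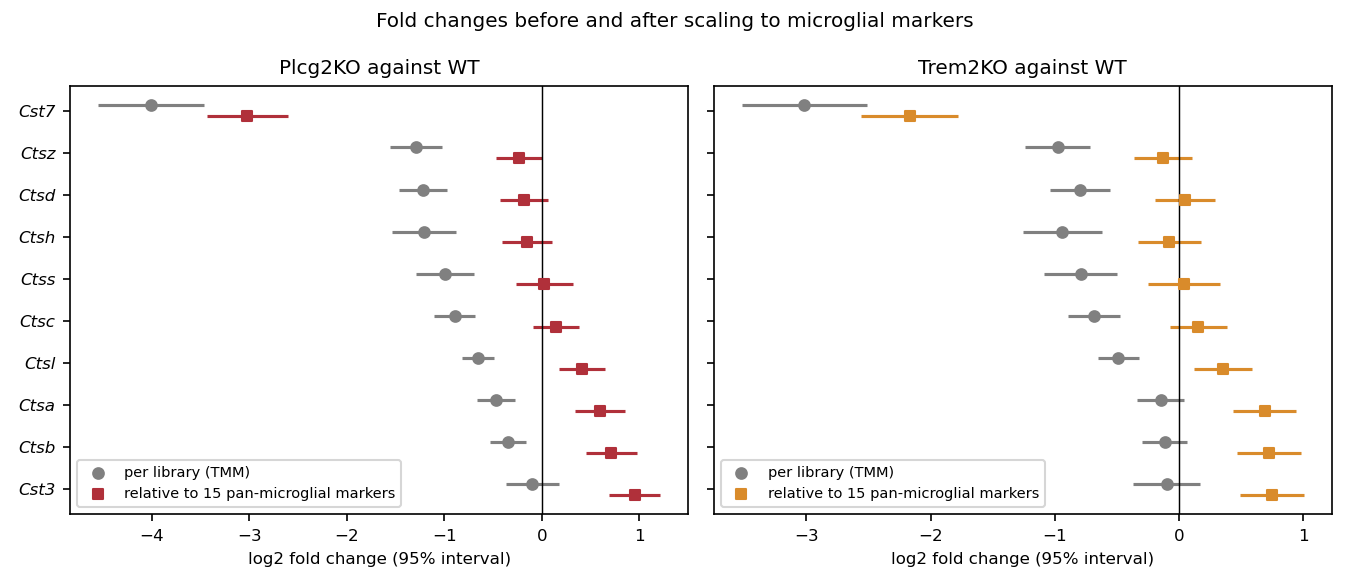
Log2 fold changes with 95% intervals before (grey circles) and after (squares) scaling each library to the mean of 15 pan-microglial markers, for Plcg2KO and Trem2KO against WT. After scaling Cst7 remains at -3.02 and -2.17, Ctsc, Ctsd, Ctsh, Ctss and Ctsz lie near 0, and Cst3 lies at 0.95 and 0.74.

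The makeup of the cathepsin transcripts is given as a description with no test. The summed TPM of the 8 cathepsins was 3018 ± 615 in WT, 3113 ± 665 in Plcg2HET, 1875 ± 211 in Trem2KO and 1484 ± 233 in Plcg2KO (SD, n = 6). Ctsd made up 45.4 to 54.0% of the sum in WT mice and 37.7 to 42.9% in Plcg2KO mice, which do not overlap, with 42.4 to 48.2% in Trem2KO. Ctsb made up 11.6 to 16.6% in WT mice, 18.4 to 21.9% in Trem2KO mice and 18.4 to 25.6% in Plcg2KO mice, so that both knockouts lay above WT. Ctss kept a mean share of 13.2 to 14.5% in all 4 genotypes.

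The ratio of an inhibitor to a target was taken within each library as the difference of log2(CPM + 0.5), which makes no use of length and so only its change can be read. Cst7 minus Ctsc was 1.71 ± 0.49 in WT, -0.54 ± 0.54 in Trem2KO and -1.42 ± 0.53 in Plcg2KO (SD, n = 6). The groups were apart, with a change of -3.13 in Plcg2KO and -2.26 in Trem2KO (two-sided exact permutation test, p = 0.00216, the smallest p this design allows, adjusted p = 0.00487 over 9 tests). Cst7 minus Ctsl changed by -3.37 and -2.43, at the same p and adjusted p by the exact permutation test. Sex was not a term in the ratio tests, and Plcg2KO held 2 females against 3 in WT.

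Cst3 minus Ctsb was 0.49 ± 0.15 in WT and 0.73 ± 0.13 in Plcg2KO, a change of 0.24 with overlapping groups (exact permutation p = 0.0238, adjusted p = 0.0429). In Trem2KO the change was 0.02 (exact permutation p = 0.792, adjusted p = 0.792). In libraries labelled Plcg2HET none of the 3 ratios passed, with changes of 0.25, 0.23 and -0.14 and adjusted p = 0.455 for each by the exact permutation test. In that group 2 of 6 libraries, M3 and F2, had Cst3 minus Ctsb below 0, and no library of another genotype did.

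**Figure D4:**
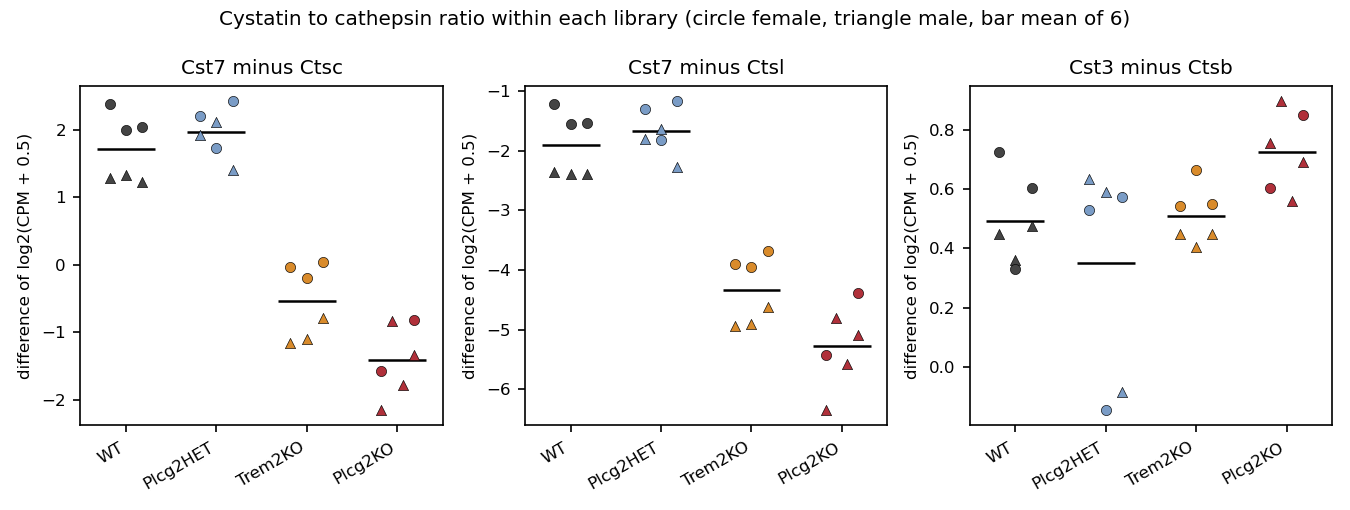
Difference of log2(CPM + 0.5) between a cystatin and a cathepsin within each library, by genotype, with females as circles, males as triangles and the mean of 6 mice as a bar. The Cst7 ratios of Trem2KO and Plcg2KO lie below all WT libraries, and the Cst3 to Ctsb ratio of Plcg2KO overlaps WT.

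Members also differed by sex. Over all genotypes 8 of 10 were higher in females, with 2.37% of all genes called (2.27% higher). Cst7 was higher by a log2 difference of 1.09 (SE 0.17, adjusted p = 0.0003), Ctsz by 0.62, Ctsh by 0.57, Ctsd by 0.51, Ctss by 0.50, Ctsc by 0.42, Ctsl by 0.28 and Ctsa by 0.26. Cst3 (0.22, 95% interval 0.02 to 0.41, adjusted p = 0.388) and Ctsb (0.16, 95% interval 0.03 to 0.29, adjusted p = 0.289) were not called. Of the pan-microglial markers 14 of 15 were higher in females too, and their part in the sex difference was not tested. Without the 3 libraries rich in Rn45s, all from females, 5 members were called, and Ctsa, Ctsh and Ctsl were not among them. For that fit the share of all genes called was not taken.

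The median sex difference of the members was 0.57 in WT, 0.43 in the group labelled Plcg2HET, 0.35 in Trem2KO and 0.20 in Plcg2KO. WT females had 67.9 to 90.7 CPM of Cst7 and WT males 26.4 to 33.1, and females lay above males for 9 of 10 members (15.6% of all genes), with Ctsb the exception. In Trem2KO females lay above males for 9 members (7.9%), again except Ctsb. This held for 6 members in Plcg2HET libraries (3.19%), not for Cst3, Ctsa, Ctsh and Ctsz, and for 2 members in Plcg2KO (7.68%), Ctsa and Ctsz, where 2 females were set against 4 males.

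Within WT alone, 5 members were called higher in females (Cst7 1.43, Ctsh 1.09, Ctsz 1.01, Ctsd 0.76 and Ctsl 0.47), with 0.601% of genes called. Within Trem2KO, Plcg2KO and the group labelled Plcg2HET 0 members were called by edgeR, where 0.0368%, 0.0368% and 0.0735% of genes were, and 5, 3 and 6 members had an unadjusted p under 0.05. The difference itself was tested as an interaction, and 0 members and 0% of genes were called in any of 4 contrasts. Against WT, the unadjusted p was under 0.05 for 5 members in Plcg2KO, 2 in Trem2KO and 1 in the libraries labelled Plcg2HET. The share of all genes at an unadjusted p under 0.05 was not taken, so the member counts at that threshold have no background. The interaction estimate in Plcg2KO against WT was -0.65 for Ctsd (95% interval -1.09 to -0.21, adjusted p = 0.636) and -0.84 for Ctsh (-1.44 to -0.25, adjusted p = 0.636), which do not pass the test.

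**Figure D5:**
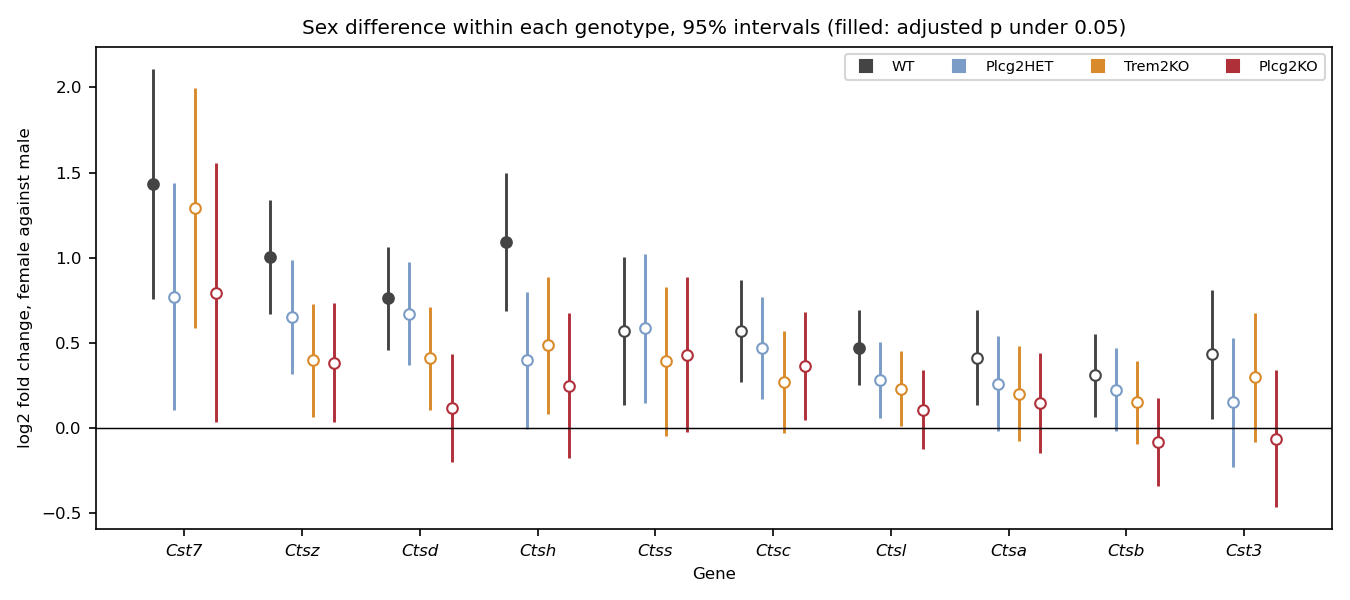
Log2 fold change of females against males within each genotype (points, filled where the adjusted p was under 0.05) with 95% intervals (lines), by gene. The 5 filled points all belong to WT, and all 10 estimates are above 0 in WT, Trem2KO and the group labelled Plcg2HET, against 8 in Plcg2KO.

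Among 15 other cathepsins 5 passed the filter and 1 was lower in each knockout: Ctse, an aspartic protease of endosomes. Ctse was 0.600 to 2.63 CPM in WT, 0 to 0.155 in Plcg2KO and 0.0294 to 0.321 in Trem2KO, and both knockouts lay below all WT mice. Its log2 fold change was -4.0 in Plcg2KO (SE 0.38, adjusted p = 4.77e-08) and -3.5 in Trem2KO (SE 0.35, adjusted p = 2e-07), on counts of at most 18 per knockout library, and was 1.16 higher in females (adjusted p = 0.00609), a call lost without the 3 libraries rich in Rn45s (1.05, adjusted p = 0.11). In libraries labelled Plcg2HET, Ctsk had a log2 fold change of -0.37 (adjusted p = 0.0488), a call lost in 19 of 24 fits without 1 library and in 9 of 12 other alternatives, and 9 cathepsins, most of them known from placenta, were at 0 in every genotype.

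Of 19 other cystatins and cysteine protease inhibitors 3 passed the filter, and 0 were called in either knockout by edgeR. Cstb, the cytosolic inhibitor cystatin B, was 23.2 ± 5.88 CPM in WT, 21.7 ± 2.27 in Plcg2KO and 22.2 ± 3.06 in Trem2KO, with log2 fold changes of -0.07 (adjusted p = 0.821) and -0.06 (adjusted p = 0.848). Cst6 was lower in the libraries labelled Plcg2HET (-0.52, adjusted p = 0.0318), a call lost in 4 of 24 fits without 1 library (WT F1, WT F3, Plcg2HET M3 or Plcg2HET F2) and in the fit of these 2 genotypes alone (-0.48, adjusted p = 0.148).

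Of 16 genes for the activation and sorting of lysosomal proteases, 2 were lower and 2 higher in Plcg2KO, with a list median of -0.08. Grn, whose product progranulin regulates lysosomal proteases, fell by 0.67 (SE 0.10, adjusted p = 5.81e-05), and Lgmn, the asparaginyl endopeptidase that processes cathepsins, fell by 0.40 (adjusted p = 0.00189). The Lgmn call was lost in males alone (-0.39, adjusted p = 0.138) and in females alone (-0.42, adjusted p = 0.125). Tmem106b, a lysosomal membrane protein, rose by 0.41 (adjusted p = 0.0132). In Trem2KO 2 were lower and 2 higher, among them M6pr (-0.20), a mannose 6-phosphate receptor, Igf2r (0.48), the other such receptor, and Psap (0.32), which encodes the saposin precursor. Grn stood at -0.28 in Trem2KO (adjusted p = 0.0634), not called in the main fit or in 8 of 12 alternatives, and called lower in the rest. In libraries labelled Plcg2HET Gnptg (-0.45) and M6pr (-0.38) were lower and Grn (0.51) was higher. Without the libraries rich in Rn45s Grn was no longer called in that group (0.36, adjusted p = 0.0526), nor in Trem2KO were M6pr (-0.18, adjusted p = 0.104), Igf2r (0.40, adjusted p = 0.053) and Psap (0.25, adjusted p = 0.0952). With GC content and length offsets the Trem2KO value was -0.056 for M6pr (adjusted p = 0.6) and 0.28 for Psap (adjusted p = 0.0565), neither of them called.

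Of 3 MiT/TFE factors tested, Tfeb was lower in Plcg2KO (-0.62, adjusted p = 0.0247), none was called in Trem2KO by the main edgeR fit, and Tfeb (0.55) and Tfe3 (0.50) were higher in libraries labelled Plcg2HET. Without the libraries rich in Rn45s neither was called in that group (Tfeb 0.36, adjusted p = 0.321, and Tfe3 0.42, adjusted p = 0.0704), nor in a fit of these 2 genotypes alone (adjusted p = 0.134 and 0.0628). In Trem2KO against WT, Tfe3 stood at 0.32 in the main fit (adjusted p = 0.0576). It was called higher there by DESeq2 (0.33, adjusted p = 0.0446) and in an edgeR fit of Trem2KO and WT alone (0.34, adjusted p = 0.00156). With GC content and length offsets Tfe3 was called there too (0.22, adjusted p = 0.0446). Of 8 genes of class II presentation, the pathway in which Ctss acts, 6 were lower in each knockout and 0 were called in the libraries labelled Plcg2HET. Cd74, the invariant chain, had log2 fold changes of -2.24 in Plcg2KO and -2.16 in Trem2KO, H2-Ab1 of -2.07 and -1.94, and H2-Aa of -1.92 and -2.13. The list medians were -1.25 and -1.11.

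Likeness between genes was measured as Pearson's r of log2(CPM + 0.5) over the 24 libraries after the genotype and sex means were taken out, among 13876 genes, and is a description across libraries that share depth and scaling. Among the members, r over 45 pairs ran from -0.30 (Ctss and Ctsa) to 0.91 (Ctsz and Ctsh), with a median of 0.56. The median over pairs of all genes was not taken, so this value has no background. The genes nearest to Cst7 were Clec7a (0.93), Gfap (0.90) and H2-DMb1 (0.86). Those nearest to Ctsz were Trem2 (0.91), Lat2 (0.90) and Olfml3 (0.89), those nearest to Ctsd were Slc37a2 (0.95), Fcrls (0.95) and Plin2 (0.90), and those nearest to Ctss were Mpeg1 (0.94), Trim30a (0.90) and Lyz2 (0.86). Among the genes near to Ctsc were Lcp1 (0.82) and Cd180 (0.82), and among those near to Ctsl were Cd86 (0.82) and Bst2 (0.80). Among those near to Ctsh were Aldh3b1 (0.93) and Fcgr3 (0.91). Cst3 was nearest to Alkbh7 (0.96), Ftl1 (0.96) and Nme2 (0.96), Ctsa to Ddx24 (0.93), Ddx49 (0.92) and Tcn2 (0.92), and Ctsb to Atp6v0e2 (0.89), Uchl1 (0.89) and Cpq (0.87).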

How the data were processed

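RNA was extracted from cortex, and mRNA libraries were sequenced for 24 mice, per the labels. The authors deposited whole-number read counts per gene with summed exon lengths, made with STAR 2.7.10a and featureCounts 2.0.3 on mm10, per the submitters' processing notes. A second deposited table holds expected counts, TPM and FPKM per library with effective lengths, per the file headers, and the tool behind it was not given in the sources used here. The members and gene lists were chosen with earlier results of these data known.

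Counts were tested in R 4.3.3 with edgeR 4.0.16: filterByExpr with a minimum count of 10, TMM scaling, a robust quasi-likelihood fit to the 24 libraries (a mean for each genotype plus sex), the quasi-likelihood F-test, and Benjamini-Hochberg adjustment over 16316 genes. A gene counts as called at an adjusted p under 0.05, and intervals are at 95%. The labels give each library its own animal code. The deposited TPM entered no test and served to compare levels between genes, and the deposited FPKM were not used here. Ratios used log2(CPM + 0.5) and two-sided exact permutation tests, with no term for sex. All members were named, and from each other list the up to 3 called genes with the smallest p in a comparison with WT. Neighbours of a member were the 3 genes of mean CPM at least 1 with the highest residual correlation, some of which are not reported here. The comparison of sexes within genotypes used 1 mean per genotype and sex. The fit was also run on simulated counts with changes placed in Plcg2KO alone and no sex effect, and the outcome is not reported here.

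Alternatives were RLE size factors, other count filters, a model without sex, a replicate block, the 2 genotypes alone, each sex alone, DESeq2 1.42.0, offsets for GC content and length (GC content known for 96.2% of genes tested), the deposited expected counts (rounded), the omission of libraries rich in Rn45s, of each library in turn, and homeostatic markers for scaling. The replicate block used the replicate code, which numbers the mice of each sex within a genotype, and not the animal code.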

Additional observations from a re-analysis of the deposited data

How the results depend on the processing

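The members called in Plcg2KO against WT numbered 7 to 9 over 12 alternatives and 9 with any library left out, and those in Plcg2KO against Plcg2HET numbered 8 or 9. In Trem2KO the count fell from 7 to 2 against WT, and from 8 to 4 against Plcg2HET, in males alone, a fit with 6 libraries in place of 12 in the comparison. In females alone, with as many libraries in the comparison, the 7 members kept their calls against WT. Against Plcg2HET, only Ctsa of the members lost its call in females alone (-0.42, adjusted p = 0.135). The difference between Plcg2KO and Trem2KO was the least stable: 3 members became 7 in a fit of the 2 genotypes compared, 0 in males or females alone, and ranged from 1 to 3 with a library left out. In libraries labelled Plcg2HET DESeq2 called 1 member, and leaving out a library gave 0 to 1, with Ctsa called without Plcg2HET M3 or without Plcg2HET F2. The female against male count of 8 was 5 without the libraries rich in Rn45s and 7 to 8 with a library left out, and Ctsa lost its sex call in 14 of these 24 fits. Without the libraries rich in Rn45s the counts against WT stayed at 9 in Plcg2KO, 7 in Trem2KO and 0 in Plcg2HET. For none of the alternatives was the share of all genes called taken, so the member counts in this section have no background.

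Relative to homeostatic instead of pan-microglial markers, 8 members in place of 5 were called in Plcg2KO against WT (6 lower and 2 higher) and 2 in place of 1 against Trem2KO. Ctsc (-0.27), Ctsl (-0.014) and Ctss (-0.37) changed sign in Plcg2KO against WT. The share of all genes called with homeostatic markers was not taken, so these counts have no background. With the replicate code as a replicate block, 9, 7, 0 and 2 members were called in Plcg2KO, Trem2KO and Plcg2HET against WT and in Plcg2KO against Trem2KO, where Ctsa was lost (-0.33, adjusted p = 0.0556). Same-code libraries correlated at -0.60 to 0.47 in their deviations from the group means (median -0.10, 33 pairs, 9 over 0.1). These values do not show that the codes pair the mice, and they cannot exclude it, since libraries also share depth and scaling. Among genes that are not members, leaving out 1 library ended the call of Ctsk (Plcg2HET, 19 of 24 fits), Igf2r (Plcg2KO, 14, and Trem2KO, 2), Cst6 (Plcg2HET, 4), M6pr (Trem2KO, 12), Psap (Trem2KO, 6) and Tfeb (Plcg2HET, 8, and Plcg2KO, 5) against WT. The ratios kept their direction and their side of the threshold under all 4 alternatives. Where a result changed, the cause was not tested. Outliers were sought in 40 groups of 6 mice (10 members in 4 genotypes), and 0 stood apart by Dixon's test. Depth did not limit the members, whose smallest count was 46, but Ctse rests on few counts in the knockouts.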
